A study of Mus musculus with 4 samples.

Results

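The regions described here were narrow H3K36me3 peaks that lay inside protein-coding genes and were called at overlapping places in 2 mouse strains. One is C57BL/6J, called B6 here. The other, B6.Cg-Prdm9<tm1.1Kpgn>/Kpgn or KI, is a knock-in on that background in which the exon of Prdm9 that encodes the zinc finger array comes from the CAST/EiJ allele, so the strains share their other genes, their SETD2 included. ChIP-seq was done on germ cells isolated at 14 dpp (days post-partum), labelled as spermatocytes, and the labels give 15 dpp for the input samples of both strains. The antibody field of the labels reads H3K36me6, whereas the sample titles and the study's methods name H3K36me3. The peaks of a strain were called once, on the joined reads of its 2 biological replicates and against its own input, so the spread between animals cannot be given and nothing was tested between the strains.

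Members were chosen by the positions in these lists: a B6 narrow peak on an autosome had to overlap, by 1 bp or more, both a KI narrow peak and the span of a protein-coding gene of the GENCODE vM1 annotation (mm9). Of 58502 B6 narrow peaks, 54236 lay on autosomes and 41692 of these lay in protein-coding genes. The rule found 7952 shared genic peaks, which is 19.1% of the B6 narrow peaks in genes. The lists hold positions only, so how many reads lie behind a given peak is not known, and the KI data were sequenced more deeply than the B6 data according to the study's methods. The overlap itself, and what goes with it, was used to choose the members and is given as a description.

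H3K36me3 is placed across the bodies of transcribed genes by SETD2, which travels with elongating RNA polymerase II, and the mark is typically low at promoters and increases towards the 3′ end. In meiotic cells PRDM9 places the same mark, together with H3K4me3, on nucleosomes beside the DNA sequence that its zinc fingers recognise. A broad region is a long stretch of enrichment such as a gene body, and a narrow peak is a place within it that the peak caller, ZINBA, called as a local maximum. The question put to the shared peaks was where in genes they lay, by exon, intron, exon number and position along the gene.

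To show what such peaks cover, 4 windows of 240 bases inside the overlap of a B6 and a KI peak are printed, from the mm9 sequence and in the direction of the gene. They come from the pairs with the highest Jaccard index (shared bases over the bases covered by either peak) whose midpoint lay in the coding part of an internal exon, Tead1 and Dcaf15, or in an intron, Zfp704 and Pcbp3. In the exonic windows capitals mark coding bases, and in the intronic windows they mark CpG dinucleotides.
Tead1 exon 10 of 13, chr7:120019490-120019729, plus strand: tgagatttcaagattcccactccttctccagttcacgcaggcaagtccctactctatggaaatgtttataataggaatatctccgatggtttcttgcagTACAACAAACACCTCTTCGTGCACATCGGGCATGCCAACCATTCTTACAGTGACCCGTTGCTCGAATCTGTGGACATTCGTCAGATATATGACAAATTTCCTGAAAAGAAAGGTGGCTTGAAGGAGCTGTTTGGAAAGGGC
Dcaf15 exon 11 of 13, chr8:86621808-86622047, minus strand: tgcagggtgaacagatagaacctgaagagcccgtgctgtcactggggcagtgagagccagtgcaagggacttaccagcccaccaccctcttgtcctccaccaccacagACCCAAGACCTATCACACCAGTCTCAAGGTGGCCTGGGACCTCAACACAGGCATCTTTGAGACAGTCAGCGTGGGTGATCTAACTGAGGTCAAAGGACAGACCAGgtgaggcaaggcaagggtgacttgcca
Zfp704 intron 2, chr3:9563919-9564158, minus strand: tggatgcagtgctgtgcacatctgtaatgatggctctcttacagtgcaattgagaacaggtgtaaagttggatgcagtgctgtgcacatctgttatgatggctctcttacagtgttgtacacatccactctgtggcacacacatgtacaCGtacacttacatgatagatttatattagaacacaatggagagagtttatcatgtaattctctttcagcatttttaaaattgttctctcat
Pcbp3 intron 1, chr10:76413755-76413994, minus strand: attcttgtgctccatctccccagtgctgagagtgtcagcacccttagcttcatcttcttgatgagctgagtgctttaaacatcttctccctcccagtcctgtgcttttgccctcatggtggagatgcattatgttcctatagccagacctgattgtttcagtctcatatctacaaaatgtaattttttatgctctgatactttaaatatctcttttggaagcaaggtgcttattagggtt
The Tead1 window (a TEAD transcription factor of the Hippo pathway) holds 141 coding bases, 7 CpG and 44.6% GC. The Dcaf15 window (a substrate receptor of a CUL4 ubiquitin ligase) holds 105 coding bases, a whole exon with intron on either side, with 2 CpG and 56.7% GC. The Zfp704 window holds 1 CpG at 39.2% GC and contains a stretch of 25 bases that occurs again within the window. The Pcbp3 window holds 0 CpG at 41.7% GC, and its longest repeated stretch is 8 bases. All 4 are places where the peaks of both strains had nearly the same borders, with Jaccard indices of 0.952 for Tead1, 0.916 for Dcaf15, 0.996 for Zfp704 and 0.995 for Pcbp3.

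The cell label was checked against broad regions over marker genes. All 10 autosomal spermatocyte marker genes, among them Sycp1, Dmc1 and Spo11, were covered over at least 50% of their span in both strains, with a median of 98.8% in B6 and 98.7% in KI. Of 6 spermatid genes 1 was covered to that extent, and of 10 Sertoli and Leydig cell genes 1. Spermatid genes had 3 members at 0 in both strains and the somatic list also had 3. The median coverage of the spermatid list was 0% in B6 and 10.6% in KI, and that of the somatic list, which ranged from 0% to 100% in both, was 17.5% in B6 and 0% in KI. The Sertoli cell genes Wt1 (71.7% in B6 and 8.49% in KI), Sox9 (45.2% and 0%), Amh (42.0% and 0.333%) and Clu (29.7% and 0%), named after their values were seen, were covered more in B6. The part of this difference between the strains in the results below was not tested, and the somatic genes held 0 shared peaks. Spermatids, the cells that follow meiosis, form later than this age in the mouse.

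Most shared genic peaks lay in introns. By the protein-coding transcript with the largest summed exon length of each gene, 6460 of 7952 midpoints lay in an intron, 81.2% (Wilson 95% interval 80.4% to 82.1%, which covers the number of peaks only). Another 642 lay in the last exon, 260 in an internal exon, 20 in the exon of a single-exon gene and 4 in a first exon. The other 564 lay outside that transcript in peaks that overlapped the gene span, and 2 were in genes without a protein-coding transcript. Of all shared midpoints 120 lay beyond the 3′ end of the gene and 6 before its 5′ end, so most of the 564 lay within the span. Among all exons of protein-coding transcripts, 1001 midpoints were exonic, 12.6% (11.9% to 13.3%), against 9.57% of all B6 narrow peaks in genes, members included. Of the exonic midpoints 437 were in coding sequence and 564 in exon outside it. The KI peaks at the same places, taken from the KI list, were 7954 in number with an exonic share of 12.9% (12.2% to 13.7%).

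Shared peaks lie where both strains have a broad region, so bases and peaks in such places were the reference. Broad regions of both strains together covered 310.9 Mb of protein-coding genes, of which 9.94% was exon, while exons made up 6.79% of all protein-coding gene bases. The share of shared midpoints in exons was 1.29 times the share of exon bases (1.22 to 1.36) there. The comparison group was 18263 B6 narrow peaks in genes that met a KI broad region but no KI narrow peak, called B6-only below. Their exonic share was 12.4% (11.9% to 12.8%). The difference, shared minus B6-only, was 0.230 percentage points (Newcombe 95% interval -0.631 to 1.11) and was positive on 11 of 19 autosomes and negative on 8, so a difference in the overall exon share was not detectable with these peak numbers. Against all 33740 B6-only peaks in genes, which include those with no KI broad region, the exonic shares were 12.6% and 8.86%. The KI list gave a difference of 3.38 points (2.59 to 4.20) against KI-only peaks on B6 broad regions, positive on 19 of 19 autosomes, so this result depended on which strain supplied the peaks and the comparison group.

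The last exon and the internal exons departed from that group in opposite directions. The last exon held 8.07% (7.49% to 8.69%) of shared midpoints and 6.74% (6.39% to 7.11%) of B6-only midpoints, a difference of 1.33 points (0.645 to 2.05) that was positive on 15 of 19 autosomes. Internal exons held 3.27% (2.90% to 3.68%) of shared and 4.33% (4.05% to 4.64%) of B6-only midpoints, a difference of -1.06 points (-1.54 to -0.559) that was negative on 16 of 19 autosomes. In the KI list the last exon again differed, by 3.14 points (2.52 to 3.80), while the internal exons did not differ beyond the interval, at -0.173 points (-0.610 to 0.299). Among peaks of 250 to 500 bp the interval of the last-exon difference also included 0, at 0.771 points (-0.160 to 1.75), and with an overlap of at least 50% of both peaks that of the internal-exon difference did, at -0.553 points (-1.24 to 0.256).
Shared peaks lay in narrower broad regions than B6-only peaks, with median widths of 5000 and 7500 bp. When B6-only peaks were weighted to the broad-region widths of the shared peaks, the last-exon difference was 1.70 points (1.01 to 2.40), the internal-exon difference was -0.194 points (-0.664 to 0.277) and the overall exon difference was 1.53 points (0.675 to 2.39). Weighted instead to the gene lengths of the shared peaks, these were 1.01 points (0.331 to 1.68), -0.895 points (-1.38 to -0.409) and -0.0587 points (-0.882 to 0.764). The higher share in last exons was thus present under both weightings, and the lower share in internal exons only under the weighting by gene length. Weightings were chosen after the data had been seen.

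Per Mb of exon within broad regions of both strains, last exons held 41.2 shared midpoints (exact Poisson 95% interval 38.1 to 44.5), internal exons 19.6 (17.3 to 22.1) and first exons 10.2 (2.78 to 26.1). Bases outside exons held 24.3 per Mb (23.7 to 24.9), between the internal and the last exons. B6-only peaks gave 79.0 per Mb in last exons, 59.5 in internal exons and 53.9 outside exons. The next-to-last exon had 47.3 shared midpoints per Mb (36.5 to 60.3), the one before it 22.9 (15.3 to 32.8) and the one before that 20.7 (13.1 to 31.1). B6-only peaks had the same order in these exons, with 80.0, 67.0 and 55.8 per Mb. The last exons that carried a shared midpoint were long, with a median, counted per midpoint, of 1946.5 bp, against 150.5 bp for internal exons. For B6-only midpoints these medians were 2132 and 147 bp.
By number, shared midpoints lay in internal exons 2 to 4 at 30.4 per Mb (24.97 to 36.6), in exons 5 to 8 at 20.5 (15.8 to 26.0), in exons 9 to 15 at 12.5 (9.04 to 17.0) and from exon 16 on at 13.3 (9.51 to 18.1). B6-only peaks had another order over the same exons, with 56.3, 78.1, 54.1 and 49.3 per Mb. Among the 926 shared midpoints in an exon of the chosen transcript the median exon number was 5, the quartiles were 3 and 9, and the highest was exon 67.

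Counted per midpoint, so that an intron with several midpoints counts several times, introns with a shared midpoint had a median length of 16097 bp. In the B6-only group it was 10467 bp. Intron 1 held 23.4% of intronic shared midpoints (1509 of 6460) and 19.8% of intronic B6-only ones, while the last intron held 10.8% and 10.7%. The median distance from an intronic midpoint to the nearest exon of its transcript was 2574 bp for shared and 1734 bp for B6-only peaks. Measured to any exon of a protein-coding gene, shared midpoints were least dense at 1000 to 5000 bp from an exon, with 18.6 per Mb (17.8 to 19.5), and most dense beyond 20000 bp, with 59.4 per Mb (55.2 to 63.7). B6-only peaks followed the same course, from 41.5 to 102 per Mb at these distances. Of the shared peaks 86.8% were the only narrow peak of their B6 broad region, and the part of broad-region length in the density far from exons was not tested.

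**Figure D1:**
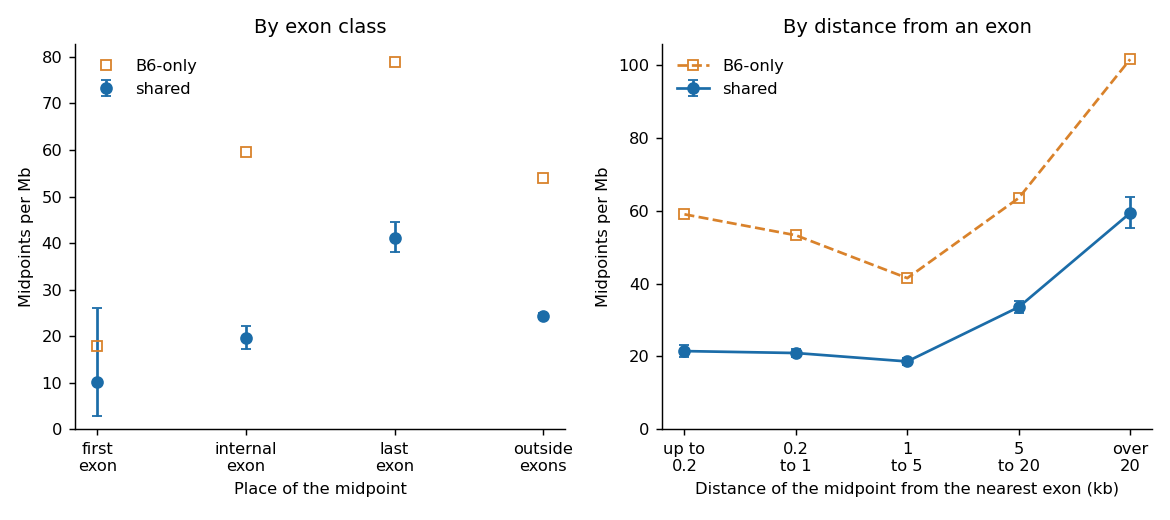
Midpoints of shared peaks (filled circles, exact Poisson 95% intervals) and of B6-only peaks on KI broad regions (open squares) per Mb of protein-coding gene in broad regions of both strains, by exon class (left) and by distance from the nearest exon in kb (right). Shared midpoints reach 41.2 per Mb in last exons against 19.6 in internal exons, and 59.4 per Mb beyond 20 kb from an exon.

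The exon share went with gene length. In genes of up to 5 kb, 53.8% of 264 shared midpoints were exonic and 37.5% lay in the last exon, and in genes over 200 kb the shares were 3.38% and 1.45% of 2280. B6-only peaks showed nearly the same course, at 53.8% and 37.8% in the shortest and 4.12% and 1.47% in the longest genes. The interval of the last-exon difference excluded 0 in 2 of 7 length classes. The difference was 7.16 points (3.55 to 11.01) in genes of 10 to 20 kb, where 22.8% of shared and 15.7% of B6-only midpoints were in the last exon, and 2.70 points (0.893 to 4.66) in genes of 20 to 50 kb. In the other 5 classes the interval included 0. For internal exons the interval excluded 0 in 1 class, genes of 20 to 50 kb, with -1.99 points (-3.23 to -0.596).

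**Figure D2:**
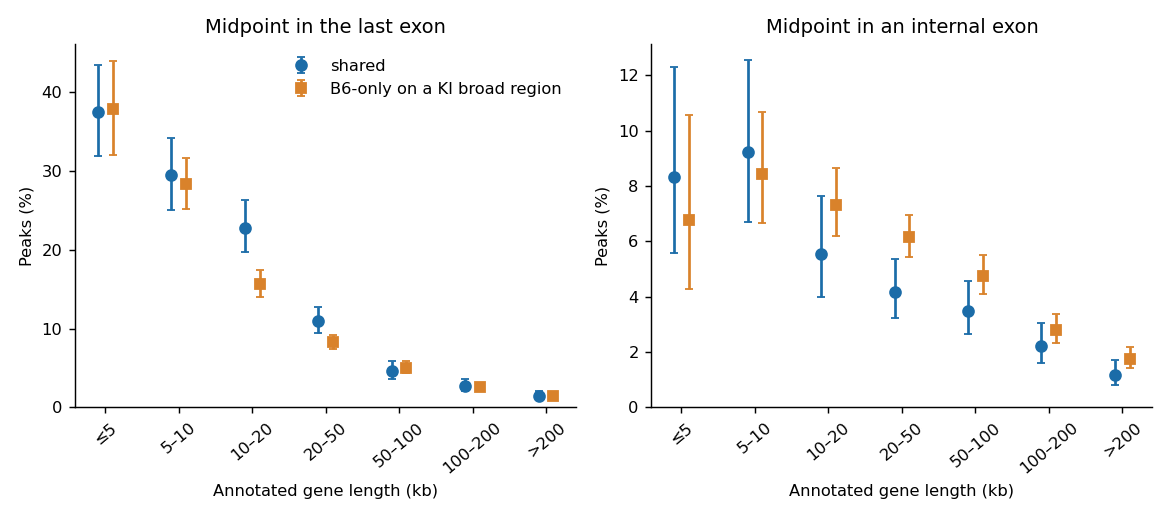
Share of peaks with the midpoint in the last exon (left) and in an internal exon (right), by annotated gene length in kb, for shared peaks (circles) and B6-only peaks on KI broad regions (squares), with Wilson 95% intervals. Last-exon shares go from 37.5% to 1.45% across the length classes, and the groups stand apart most in genes of 10 to 20 kb, at 22.8% and 15.7%.

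Along the gene, from the annotated 5′ end (0) to the 3′ end (1), the median position of shared peaks was 0.539 (95% interval of the median 0.525 to 0.554; quartiles 0.271 and 0.796), and that of B6-only peaks was 0.558 (0.551 to 0.566). In the KI list the order was the other way, with 0.540 (0.526 to 0.553) for shared and 0.511 (0.505 to 0.517) for KI-only peaks on B6 broad regions. The first decile of the gene span held 8.95% of shared peaks (8.35% to 9.60%), 7.27% of B6-only peaks (6.90% to 7.65%) and 7.02% of the gene bases in broad regions of both strains. The last decile held 12.6% (11.9% to 13.4%), 12.6% (12.2% to 13.1%) and 11.8%. Both groups were thus most frequent in the last decile, which also held the largest share of these bases. Shared peaks exceeded the share of bases by more in the first decile than in the last. Shared peaks were more frequent than B6-only peaks before position 0.1, at 9.03% and 7.28%, while in the KI list the shares there were 8.85% for shared and 8.44% for KI-only peaks. Few of either group were at the promoter. An annotated 5′ end lay within 1000 bp of 31 shared midpoints, 0.390% (0.275% to 0.553%), against 0.230% (0.170% to 0.311%) of B6-only peaks. Within 1000 bp of the 3′ end lay 509, which is 6.40% (5.88% to 6.96%) against 4.71% (4.41% to 5.03%) of B6-only peaks. Beyond the 3′ end lay 120 shared midpoints, 1.51%, and 0.723% of B6-only ones, in peaks that crossed the end of the gene. The median position of shared peaks was 0.831 in genes of up to 5 kb and 0.719 in genes of 5 to 10 kb. It was 0.634 in genes of 10 to 20 kb and 0.545 in genes of 20000 to 50000 bp. The lowest value, 0.444, was in genes of 50000 to 100000 bp, followed by 0.488 at 100000 to 200000 bp and 0.511 over 200 kb. B6-only peaks took a similar course, from 0.792 in the shortest genes to 0.511 at 50000 to 100000 bp and 0.536 in the longest.

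**Figure D3:**
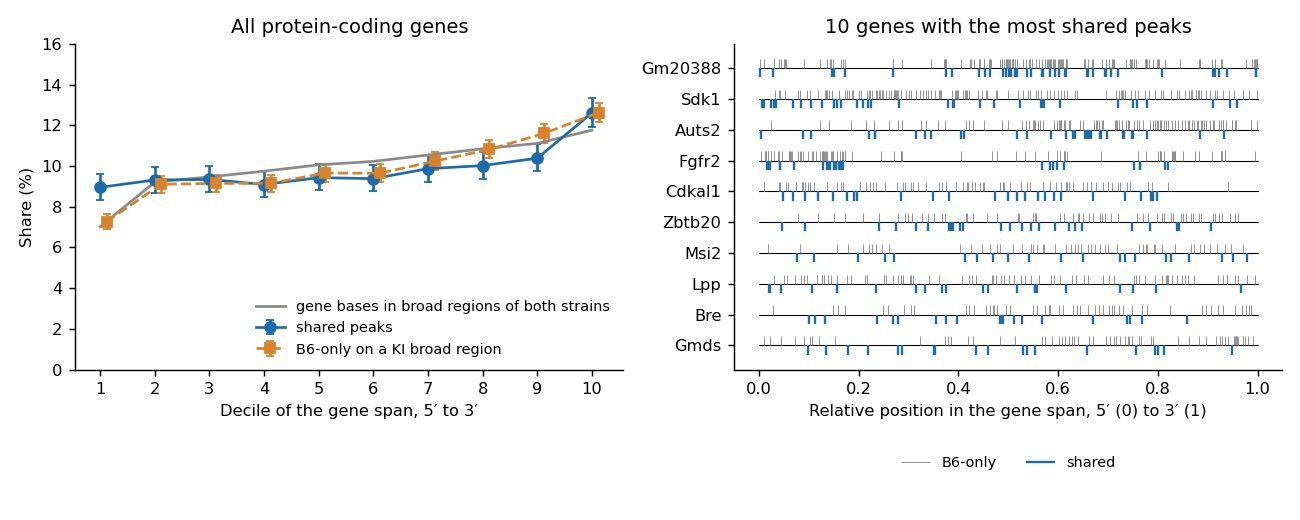
Left, share of shared peaks, of B6-only peaks on KI broad regions and of gene bases in broad regions of both strains in each decile of the gene span, 5′ to 3′, with Wilson 95% intervals for the peaks. Right, relative positions of shared (blue, below the line) and B6-only (grey, above) midpoints in the 10 genes with the most shared peaks, where the first decile of all genes holds 8.95% of shared and 7.27% of B6-only peaks.

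Over all peaks, base composition differed little between the groups of the B6 list. The median GC content was 43.1% (42.9% to 43.3%; quartiles 38.7% and 47.3%) in shared and 42.7% (42.5% to 42.8%) in B6-only peaks, and the ratio of observed to expected CpG was 0.183 and 0.177. Shared peaks in internal exons had a median GC of 46.2% (44.9% to 47.8%), against 43.2% (42.4% to 43.9%) of B6-only peaks in internal exons. In last exons the medians were 43.4% (42.4% to 44.0%) and 43.0% (42.6% to 43.5%). In introns they were 43.0% and 42.6%. In the KI list the medians for internal exons were 47.1% (45.3% to 48.2%) in shared and 46.1% (45.4% to 46.6%) in KI-only peaks, with overlapping intervals. For last exons they were 43.3% (42.6% to 43.9%) and 45.1% (44.5% to 45.6%), so shared peaks had the lower median there. The bases of the same territory had 47.5% GC in exons and 42.7% outside them. Whole shared peaks with an exonic midpoint, which can also cover bases outside the exon, had a median of 44.0%, and such B6-only peaks 43.1%.

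How closely the paired peaks coincided, which the rule used in part, varied widely. The B6 peaks had a median width of 366 bp (quartiles 268 and 563) and their KI partners 374 bp. The median overlap was 219 bp, the median distance between midpoints 168 bp and the median Jaccard index 0.327 (quartiles 0.146 and 0.540). In 39.3% of pairs the shorter peak lay wholly within the longer one. In 519 pairs the Jaccard index was over 0.8, and in 2601 it was under 0.2. The highest indices were 0.996 in Zfp704, 0.995 in Pcbp3 and Tagap1, 0.994 in Hdlbp, which encodes the RNA-binding protein vigilin, and 0.993 in Ccnl1, a cyclin linked to splicing. All 5 midpoints were intronic, in intron 2 of Zfp704, intron 1 of Pcbp3, intron 3 of Tagap1, intron 1 of Hdlbp and intron 3 of Ccnl1.
At the edge of the rule 14 shared peaks overlapped by 1 bp. The first in genome order were in Spag16, a protein of the sperm flagellum, in Mreg and in Kif5c, a kinesin heavy chain. On the other side 21 B6 genic peaks touched a KI narrow peak without sharing a base, the first of them in Smyd3, Galk2 and Polr3gl. Another step out, 1449 unshared peaks lay within 100 bp of a KI narrow peak, so the border of the set passes through a continuum of distances.

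The widest shared peaks were wide in B6 and narrow in KI. The widest, in intron 6 of Rusc2, spanned 5171 bp in B6 and 1439 bp in KI. In Magi3, which encodes a scaffold of cell junctions, the widths were 4353 and 261 bp. In Serp1, a protein of the endoplasmic reticulum, they were 4230 and 465 bp, and the midpoint was in the last of 3 exons. In Hibch they were 3843 and 1121 bp, and in Mrpl51, a mitochondrial ribosomal protein gene, 3629 and 316 bp. These peaks were ranked by their B6 width, which favours this direction. B6 peaks over 1000 bp overlapped a KI narrow peak in 35.9% of cases (625 of 1741), against 14.9% of peaks up to 250 bp.

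The width of the B6 broad region went with sharing in a curve. Of B6 narrow peaks in genes, 10.4% (9.79% to 11.1%) were shared where the broad region was up to 2 kb, 28.7% (27.6% to 29.8%) at 5 to 10 kb and 11.7% (10.2% to 13.4%) over 50 kb. A KI broad region was present for 30.8% of peaks on the shortest and 99.5% of those on the longest B6 regions. Among peaks with one, the shared share was 33.8% on the shortest regions, 37.9% at 2 to 5 kb and 11.7% over 50 kb. Across autosomes the shared share of B6 narrow peaks in genes ranged from 17.0% to 21.6%. These shares restate the rule by class and are descriptions.

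**Figure D4:**
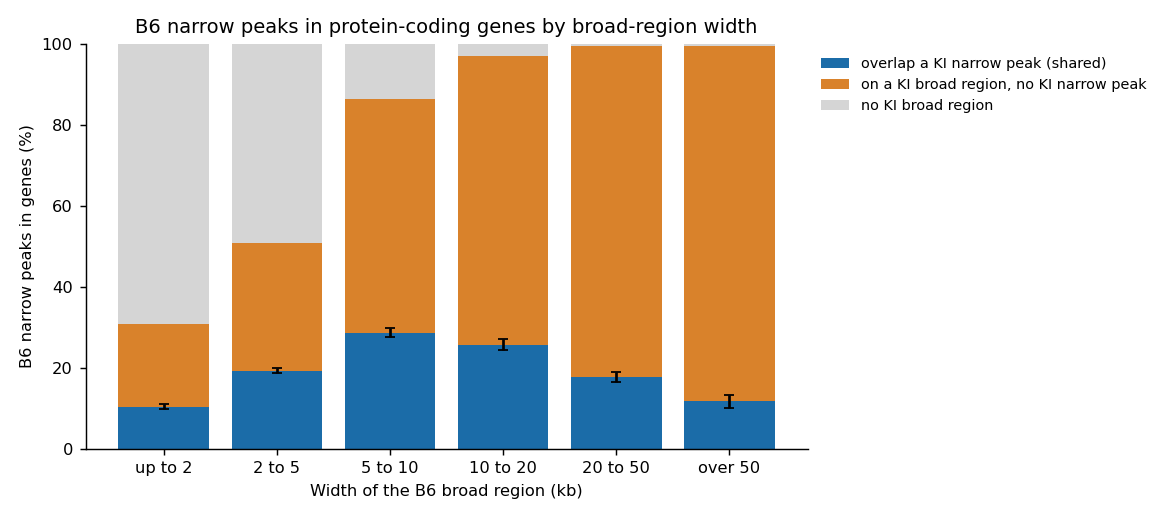
B6 narrow peaks in protein-coding genes by the width of their B6 broad region in kb, split into those that overlap a KI narrow peak, those on a KI broad region without one and those with no KI broad region; error bars on the shared share are Wilson 95% intervals. The shared share is 10.4% at up to 2 kb, 28.7% at 5 to 10 kb and 11.7% over 50 kb.

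Shared peaks were spread over 4087 of 21418 autosomal protein-coding genes, 19.1% of them. Of these genes 2684 held 1 shared peak, 666 held 2 and 64 held 10 or more. Among 8602 genes covered over at least 50% of their span by broad regions in both strains 31.8% held a shared peak, and among the other 12816 genes 10.6%. In 3282 genes each strain had exactly 1 narrow peak assigned, and in 778 of them, 23.7%, those peaks were shared. Genes with a shared peak had a median length of 43.9 kb, against 15.5 kb for all. Ties of overlap went to the longer gene, so a peak inside a gene that a longer gene encloses was counted for the longer gene.

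The genes with the most shared peaks were very long. Gm20388, an annotated locus with a span of 4435 kb that runs over other genes, held 40 shared peaks among 177 B6 and 218 KI narrow peaks. These are the peaks assigned to it, which include peaks inside the shorter genes that it encloses. Sdk1, a cell adhesion protein of synapses, held 34 shared among 160 B6 and 146 KI peaks, all 34 in introns. Auts2, a gene of neural development, held 31 among 130 and 216, of which 30 lay outside its chosen transcript. Broad regions covered 87.9% of Auts2 in B6 and 65.2% in KI.
Fgfr2, a growth factor receptor whose annotated span of 3009 kb is unusually long, held 27 among 113 and 138, and all 27 lay outside its chosen transcript. Cdkal1, a tRNA-modifying enzyme, held 25 among 97 and 95, with 2 in exons. Zbtb20, a zinc finger repressor, also held 25, among 86 and 144. Their shared peaks ran along most of the gene, at relative positions from 0.0491 to 0.799 in Cdkal1 and from 0.0467 to 0.907 in Zbtb20.
Msi2, an RNA-binding protein of stem cells, and Lpp, a focal adhesion protein, held 21 each, Bre, a subunit of BRCA1 complexes, 20, and Gmds, an enzyme of GDP-fucose synthesis, 19. Every shared peak of these 4 genes was intronic. Per length the highest of the 10 was Bre with 0.0516 shared peaks per kb and the lowest Fgfr2 with 0.00897. Without the genes over 1 Mb, a setting added after the data were seen, there were 7812 shared peaks with an exonic share of 12.7%.

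Genes of H3K36 methylation, a list of methyltransferases and demethylases together with Supt6h and Iws1, were nearly all marked. Of these 16 genes 15 were covered in both strains, and 7 held a shared peak. Among the covered genes the share was 46.7%, against 31.8% of all covered genes and 39.0% of covered genes over 20 kb. The list had a median gene length of 77.0 kb. Its genes held 13 shared peaks among 39 B6 and 63 KI narrow peaks, 33.3% of the B6 peaks against 19.1% over all genes. Per Mb of gene in broad regions of both strains they held 12.4 shared peaks, against 24.9 over all genes. Smyd2, a lysine methyltransferase, and Kdm4b, a demethylase of H3K9 and H3K36, held 3 each, all intronic. In Smyd2 they lay close together, at positions 0.178 to 0.230, among 6 B6 and 7 KI peaks. Setmar, which joins a methyltransferase domain to a transposase, held 2, which were all of its B6 narrow peaks, beside 2 KI narrow peaks. Setd2, the methyltransferase of gene bodies, had 1 B6 and 2 KI narrow peaks and Prdm9 had 2 and 1, with 0 shared in either gene.

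Of 36 annotated genes of meiotic recombination and the chromosome axis, 34 were covered in both strains and 11 held a shared peak, 15 in all, 2 of them exonic. Among the covered genes the share was 26.5%, against 31.8% of all covered genes, and 18.75% of their B6 narrow peaks were shared, against 19.1% over all genes. Mei4, needed for double-strand break formation, held 5 among 28 B6 and 27 KI narrow peaks, at positions 0.0957 to 0.398, with broad regions over 42.9% of the gene in B6 and 24.1% in KI. Psmc3ip (Hop2), a cofactor of DMC1, and Tex12, a component of the synaptonemal complex, held 1 each, and in both genes it was the only narrow peak of either strain. Dmc1, with 1 B6 and 2 KI peaks, and Spo11, with 2 and 1, held 0. Of the 10 spermatocyte marker genes, Hormad1, an axis protein, held the 1 shared peak, at position 0.0969, which is 10% of that list against 31.8% of all covered genes.
In the piRNA pathway 3 of 16 annotated genes, 18.75% against 19.1% of all protein-coding genes, held 4 shared peaks. All were intronic, with 2 in Piwil4 and 1 each in Asz1 and Tdrd9. Among the 14 covered piRNA genes the share was 14.3%, against 31.8% of all covered genes. Of the list's B6 narrow peaks 11.8% were shared, against 19.1% over all genes. Among 13 germ cell RNA-binding genes Ybx2 and Cpeb1 held 1 each, 15.4% of the list and 16.7% of its covered genes. Of the B6 narrow peaks of that list 7.69% were shared. The Ybx2 peak crossed the 3′ end, and the KI peak that it overlapped lay beyond the gene. Of 6 spermatid genes Spaca1, an acrosomal protein, held 1 shared peak in its last exon, and of 10 Sertoli and Leydig cell genes 0 did.

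Ribosomal protein genes, which are short and highly transcribed, held a shared peak in 30 of 75 genes, 40% (29.7% to 51.3%), against 19.1% of all protein-coding genes and 22.7% of the 1036 genes of up to 5 kb covered in both strains. Of their 61 B6 narrow peaks 49.2% were shared, and in the short covered genes 50%, so the shares of shared peaks lay close together while narrow peaks were more frequent, at 61 in 75 ribosomal genes and 476 in 1036 short covered genes. Their shared peaks lay towards the 3′ end, with a median position of 0.894, and 11 of 30 midpoints lay beyond the annotated end. In the short covered genes the median was 0.795 and 47 of 238 midpoints lay beyond the end. In Rpl28 the position was 1.22 and in Rpl22l1 1.10. In Rpl10l, a single-exon paralog expressed in testis, it was 0.880, with widths of 2020 bp in B6 and 122 bp in KI. This gene spans 1021 bp, so the B6 peak crossed both of its ends. The KI peak, at 1459 to 1580 bp from the annotated 5′ end, lay wholly beyond the gene.
The 10 of 30 peaks wider than 1000 bp in B6 compare with 7.86% of all shared peaks, and 4 of the 30 KI partners were wider than 1000 bp. Ribosomal protein genes have many processed pseudogenes, reads without a unique position were discarded by the authors, and the part of that step in the position and width of these peaks was not tested.

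**Figure D5:**
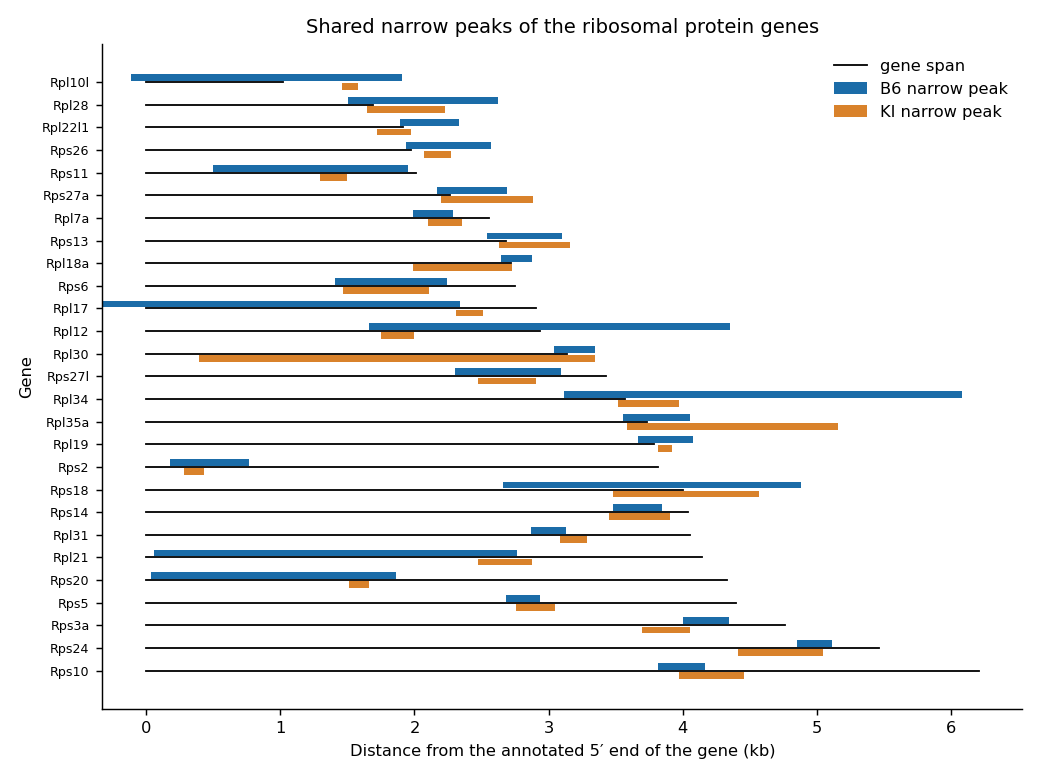
Shared narrow peaks of the 27 ribosomal protein genes of up to 10 kb that hold one, by distance in kb from the annotated 5′ end; the line is the gene span, the upper bar the B6 peak and the lower bar the KI peak (Rps15a, Rpl11 and Rpl24, which are longer, are left out). Over all 30 genes 18 B6 midpoints lie past 0.8 of the gene, and 11 of these lie beyond its end.

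Zinc finger genes named Zfp held a shared peak in 109 of 362 genes. Among the 259 of them covered in both strains the share was 32.05%, against 31.8% of all covered genes. Of their 152 shared midpoints 64 were exonic, and 57 of these 64 lay in the last exon, which in this family often encodes the whole zinc finger array. The genes of the list had a median length of 14.6 kb, and in all genes of 10 to 20 kb 30.3% of shared midpoints were exonic. The most were in long members of the list, with 15 intronic peaks in Zfp385b, 6 in Zfp277 and 4 in Zfp827. Splicing factor genes of the Srsf, Sf3 and Hnrnp families held 11 shared peaks in 11 of 36 genes, 1 each, which is 32.4% of the covered ones against 31.8% of all covered genes. In this list Hnrnpa0, Srsf1 and Sf3a2 had a single narrow peak in each strain, as had other members with a shared peak, such as Srsf7, and without one, such as Srsf3.

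Among genes of cytoskeletal motors the shared peaks lay in a minority of members, though for kinesins this was 32.4% against 19.1% of all protein-coding genes. Kinesin genes held 40 in 12 of 37 genes, and 26.9% of the covered kinesin genes held one against 31.8% of all covered genes, with 11 in Kif16b among 36 B6 and 50 KI peaks, 7 in Kif5c and 6 in Kif6. Dynein heavy chain genes, most of them of the axoneme of cilia and flagella, held 39 in 5 of 15 genes, with 15 in Dnahc8 among 40 B6 and 50 KI peaks, 14 in Dnahc7b and 7 in Dnahc2. That is 33.3% of the dynein genes against 19.1% of all protein-coding genes. The 3 of the 15 that were covered in both strains all held a shared peak, against 31.8% of all covered genes. The dynein genes had a median length of 172 kb, and of all genes over 20 kb 31.2% held a shared peak. Long members without a shared peak included Kif26b, Dnahc9, Dnahc11 and Dnahc5, in each of which broad regions covered at most 8.05% of the span in either strain. Other members went the other way. Kif13a held 2 shared peaks with coverage of 15.8% in B6 and 2.24% in KI, and Dnahc10 held 0 with 18.1% and 23.1%. All of these were named after their values were seen. Ubiquitin-specific peptidase genes held 16 in 8 of 45 genes, with 6 in Usp25, 3 in Usp13 and 2 in Usp12, and the share among covered genes was 16.7%, below the 31.8% of all covered genes. Olfactory receptor genes, which are silent outside sensory neurons for the most part, held 0 in 1106 genes, of which 2 were covered. Among 100 genes named Krt the single one with a shared peak was Krtcap2, which is not a keratin but a subunit of the oligosaccharyltransferase complex.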

How the data were processed

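H3K36me3 ChIP-seq of MNase-fragmented germ cell chromatin was aligned to mm9 by the authors with BWA (1.2.3 per the labels), reads without a unique position were discarded, and the replicates of each strain were merged. The deposited lists, called with ZINBA against the input with its FDR option off, hold 3 columns of positions (chromosome, start, end; unit: other), 1 broad and 1 narrow list per strain, and no counts. Starts were read as 1-based with both ends included. Depth per peak is unknown. Inputs have no list and entered no comparison.

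Members, gene lists and comparisons were chosen with earlier results of these data known. Peaks were joined with numpy 2.4.6 and pandas 2.3.3, checked against bedtools 2.31.1 and tested on simulated data. The GENCODE vM1 annotation and the mm9 sequence (samtools 1.23.1, pysam 0.24.0) gave places and bases. The sequence was not repeat-masked, so repeat shares were not computed. A peak was assigned to the gene of longest overlap, with ties to the longer gene. Places use midpoints. Intervals are Wilson, Newcombe, exact Poisson (scipy 1.17.1) or order-statistic, at 95%. Named are the 10 genes with the most shared peaks, the 5 widest peaks, the 5 pairs of highest Jaccard index, 3 peaks on each side of the overlap limit and up to 3 genes per list. Setd2, Prdm9, Dmc1 and Spo11 were named besides, after their values were seen.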

Additional observations from a re-analysis of the deposited data

How the results depend on the processing

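No paired analysis was possible because the replicates were merged before the lists were made, and no list without a replicate was analysed here, so the spread between animals is unknown. Of 75 alternative values 48 stayed within the interval, call or factor of 1.5 of the reported ones, and no cause was tested for the others. The last-exon difference excluded 0 under every alternative but peaks of 250 to 500 bp, where it was 0.771 points. The internal-exon difference included 0 with an overlap of 50% of both peaks (-0.553), in the KI list (-0.173) and weighted by broad-region width (-0.194), and turned to 0.119 points against all B6-only peaks. The overall exon difference excluded 0 in the KI list (3.38), with any base in an exon (1.36), against all B6-only peaks (3.73) and weighted by broad-region width (1.53), and was -0.987 for peaks of 250 to 500 bp. An overlap of 50% of both peaks left 2648 shared peaks in 1929 genes, with a median position of 0.561 and GC of 42.8%. Peaks of 250 to 500 bp left 4070 in 2516 genes, with 11.8% in exons, 1.202 times the share of bases, and GC of 42.5%. Peaks wholly within 1 gene had 11.3% in exons, 1.13 times the share of bases, 7.12% in last exons and a median position of 0.522. The KI list had a GC of 43.4%. The exonic share was 14.4% with exons of all transcripts and 24.4% with any base in an exon, where the ratio to bases was 2.33.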
